A study of Mus musculus with 13 samples.

Results

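Tmem176a and Tmem176b are neighbouring genes on mouse chromosome 6 that encode small membrane proteins with 4 predicted membrane-spanning segments, related to the MS4A family. The pair is 2 of the 52636 genes listed for every mouse, and both passed the filter on low counts. Its members were found by Ensembl identifier and were chosen by name after their genotype difference in these data was known, so their levels by genotype are given as a description with no test. Brain myeloid cells of 13 mice were sorted and profiled by RNA-Seq with each mouse as 1 replicate, 7 of them PS2APP;Trem2wt (5 females, 2 males) and 6 PS2APP;Trem2ko (5 females, 1 male). All 13 mice were 14 to 15 months of age and carried the PS2APP transgene, which encodes mutant human presenilin and amyloid precursor protein and leads to β-amyloid plaques. PS2APP;Trem2wt mice, the controls, had intact Trem2, and PS2APP;Trem2ko mice were homozygous for a null Trem2 allele present in every cell, so Trem2 was missing from all myeloid cells and not from microglia alone. There was no group without the transgene, so the genotypes were compared only in mice with amyloid. Cortex and hippocampus were pooled from each mouse, and live CD11b+ CD45+ cells were collected by FACS, which sorts single cells by fluorescent labels, after Ccr2+ and Ly6g+ cells had been gated out.

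The TMEM176 proteins sit mainly in intracellular membranes of the endosomal and Golgi system and have been described as cation channels. They are best known from dendritic cells, where they have been linked to antigen presentation on MHC class II, and from RORγt-expressing lymphocytes. Tmem176b is also known as a brake on the NLRP3 inflammasome, the complex that activates caspase-1 and interleukin-1β. Microglia, the resident macrophages of the brain, change their gene expression around amyloid plaques in a way that requires the lipid-sensing receptor Trem2.

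In the GENCODE M21 annotation of GRCm38, Tmem176b (ENSMUSG00000029810) lies on the minus strand of chromosome 6 from 48833818 to 48841496, and Tmem176a (ENSMUSG00000023367) on the plus strand from 48840919 to 48847071. The genes are therefore head to head, and their annotated 5′ ends overlap by 578 bases. Exons of the 2 genes share 81 bases, which is 2.13% of the exon bases of Tmem176a and 3.42% of those of Tmem176b. Of the 50-base words in their transcripts, 0.33% for Tmem176a and 0.48% for Tmem176b also occurred in a transcript of another gene on either strand, and in both cases that gene was the partner. The library kit does not mark strand, so reads from the shared bases cannot be assigned to one gene or the other, and the share is small.

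**Figure D1:**
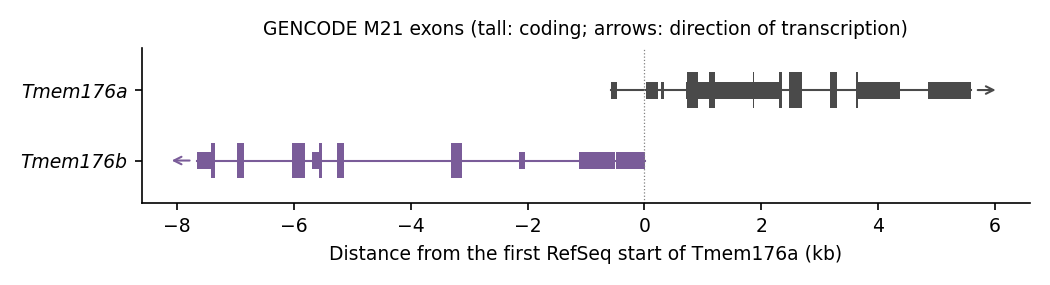
Exons of the pair in GENCODE M21, with distance from the first RefSeq start of Tmem176a (kb) on the x axis and 1 row per gene. Tall boxes are coding parts, low boxes other exon parts, and arrows point in the direction of transcription. The genes point away from each other and their first exons meet and overlap near 0.

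RefSeq gives 2 starts for Tmem176a and 3 for Tmem176b on GRCm38.p6, and the nearest opposed starts are 109 bases apart. The 250 bases before the first Tmem176a start (48841483) and before the middle Tmem176b start (48841137) share 155 bases on opposite strands. Their GC contents were 59.6% and 56.4%, beside a median of 52.4% over 32851 RefSeq promoter windows of the same length. Both windows were searched on both strands for 4 short motifs that do not overlap one another. Whether the members share promoter control was not tested. The motif GGAAGT, one form of the site bound by ETS factors such as the myeloid regulator PU.1, is held by 19.7% of all windows. It was found once, at position -45 from the Tmem176a start. Shorter or other forms of the ETS site were not searched, so their absence from either window is not shown. The AP-1 motif TGANTCA, held by 6.7% of all windows, was in neither. The TATA box, searched as TATAAA and held by 12.4%, was in neither. The binding site of ROR receptors, searched as AGGTCA and held by 14.0%, was in neither. The bases around the match and the bases next to the Tmem176b start are shown 5′ to 3′ on the strand of each gene, with the match in capitals. They flank the stretch that the windows share and lie outside it. The first lies at chr6:48841433-48841462 on the plus strand, inside a first exon of the longer Tmem176b transcripts, and the second at chr6:48841138-48841167 on the minus strand.
Tmem176a: tgccaGGAAGTgttgaggtctgcccattcc
Tmem176b: acccccctcaagtggggccctttcctgtca

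The libraries held between 26120961 and 120569609 counts on genes. Levels are given in nRPKM, the study's reads per length and depth of a library, scaled by a size factor. Trem2, the deleted gene, had a mean of 1044 ± 141 nRPKM over the 7 PS2APP;Trem2wt mice (SD) and of 0.887 ± 0.734 over the 6 PS2APP;Trem2ko mice (SD), so every library matched its label. The defining microglial marker P2ry12 stood at high and similar levels in PS2APP;Trem2wt and PS2APP;Trem2ko cells (1949 and 1952 nRPKM), and of 10 microglial markers only Cx3cr1, the fractalkine receptor, passed the test, at -0.49 on the log2 scale (SE 0.086, edgeR adjusted p = 0.00670). No pair of mice of 1 genotype agreed within sampling noise.

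Both genes were abundant in PS2APP;Trem2wt microglia and lower in PS2APP;Trem2ko microglia. In PS2APP;Trem2wt mice the Tmem176a level had a lowest value of 66.0, a median of 79.1 and a highest value of 94.7 nRPKM. In PS2APP;Trem2ko mice the same values were 24.5, 31.3 and 40.0 nRPKM. The genotypes therefore did not overlap, and the highest PS2APP;Trem2ko mouse was well below the lowest PS2APP;Trem2wt mouse. The mean was 78.4 ± 9.42 nRPKM (SD, n = 7) against 31.8 ± 5.45 (SD, n = 6). The log2 fold change of Tmem176a between PS2APP;Trem2ko and PS2APP;Trem2wt was -1.30 (SE 0.11, edgeR), and the PS2APP;Trem2ko mean was 40.6% of the PS2APP;Trem2wt mean.

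Tmem176b followed the same pattern at a higher level. Its lowest, median and highest values were 129, 150.4 and 177 nRPKM in PS2APP;Trem2wt mice. They were 56.4, 68.3 and 85.2 nRPKM in PS2APP;Trem2ko mice, again with no overlap between the genotypes. The mean was 150.1 ± 14.8 nRPKM (SD, n = 7) against 70.2 ± 10.5 (SD, n = 6). The log2 fold change of Tmem176b was -1.10 (SE 0.096, edgeR), and 46.8% of the PS2APP;Trem2wt level remained. Thus in cells without Trem2 neither member was lost, and each was still measured at a high count per mouse, between 2604 and 9847 counts for Tmem176a and between 7729 and 30067 for Tmem176b. In RNA of a sorted population, fewer cells that express a gene and less of its RNA per cell cannot be told apart.

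For scale, of the 17086 genes that passed the filter, 262 (1.53%) passed a Benjamini-Hochberg adjusted p of 0.05 in edgeR as lower in PS2APP;Trem2ko cells and 86 (0.503%) as higher, and 209 (1.22%) had every PS2APP;Trem2ko mouse below every PS2APP;Trem2wt mouse. Both members were in this last set, which follows from how they were chosen. The median log2 fold change over all genes tested was 0.0039. By nRPKM in PS2APP;Trem2wt cells, Tmem176b ranked 190 and Tmem176a 406 of the 17086 genes, and in PS2APP;Trem2ko cells they ranked 446 and 1201. Of the 406 genes with at least the level of Tmem176a in PS2APP;Trem2wt cells, 8 (1.97%) had a PS2APP;Trem2ko level lower by 2-fold or more, which is close to the share over all genes tested (330, or 1.93%). Besides the pair and Trem2 these were Spp1, Cst7, Ank, Axl and Cd52, of which Ank, Axl and Cd52 were named after their values were seen.

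**Figure D2:**
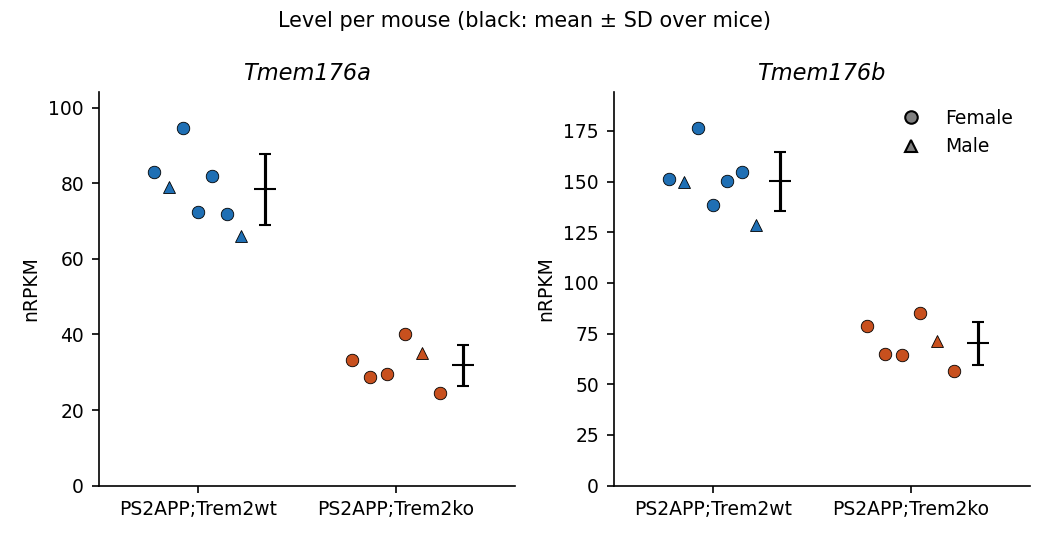
Level of Tmem176a (left) and Tmem176b (right) in each mouse, in nRPKM on a linear y axis from 0, by genotype on the x axis. Circles are females, triangles males, and the black bar is the mean ± SD over 7 PS2APP;Trem2wt or 6 PS2APP;Trem2ko mice. All PS2APP;Trem2ko mice (24.5 to 40.0 for Tmem176a, 56.4 to 85.2 for Tmem176b) lie below all PS2APP;Trem2wt mice.

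Sequencing depth did not order these levels. The deepest PS2APP;Trem2wt library (114857155 counts) had 66.0 nRPKM of Tmem176a and the shallowest (26120961 counts) 79.1, whereas the deepest PS2APP;Trem2ko library (120569609 counts) had 33.3 and the shallowest (41567025 counts) 29.4. The spread between mice was modest for both genes. The coefficient of variation was lowest for Tmem176b in PS2APP;Trem2wt mice, at 9.86%, and highest for Tmem176a in PS2APP;Trem2ko mice, at 17.1%.

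Sex had no part in choosing the pair and was tested. In PS2APP;Trem2wt mice Tmem176a was at 80.8 ± 9.33 nRPKM (SD, n = 5) in females and at 66.0 and 79.1 in the 2 males. In PS2APP;Trem2ko mice it was at 31.2 ± 5.83 nRPKM (SD, n = 5) in females and 35.0 in the 1 male, so the male lay inside the female range. With genotype in the model, the log2 difference between males and females was -0.026 (SE 0.13, adjusted p = 0.979, edgeR) for Tmem176a and -0.074 (SE 0.114, adjusted p = 0.912, edgeR) for Tmem176b. A two-sided exact permutation of sex within genotype, with 126 arrangements, gave p = 0.833 and p = 0.548. Over all genes tested 4 (0.0234%) were called by sex, and neither member was among them. With 3 males, a difference smaller than about 2 of these standard errors was not detectable.

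Tmem176b was the more abundant member in every mouse. The ratio of Tmem176a to Tmem176b nRPKM, a comparison of levels per length within a mouse, was between 0.422 and 0.548 with a mean of 0.490 ± 0.044 (SD, n = 13). The log2 ratio of -1.03 ± 0.13 (SD, n = 13) differed from 0 by a two-sided exact permutation test that flips the sign for each mouse (p = 0.000244, the smallest that 8192 flips can give), and Tmem176a was the lower member in 13 of 13 mice. The deposited values imply a Tmem176b gene model 1.29 times as long as that of Tmem176a, whereas in GENCODE M21 its exons cover 2371 bases against 3810. Per base of GENCODE exons the ratio was smaller, between 0.204 and 0.265, with a mean log2 ratio of -2.09, and Tmem176b remained the higher member in all mice. The size of the difference thus depends on the gene model and its direction did not under either. In raw reads Tmem176b had between 2.35 and 3.05 times the counts of Tmem176a.

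By genotype the ratio is part of the contrast that chose the pair and is given as a description. In PS2APP;Trem2wt mice it averaged 0.522 ± 0.028 (SD, n = 7) and in PS2APP;Trem2ko mice 0.453 ± 0.025 (SD, n = 6), which differ by -0.20 on the log2 scale. Thus Tmem176a was at a smaller fraction of Tmem176b in cells without Trem2. The groups overlapped, since 4 of the 6 PS2APP;Trem2ko mice were below the lowest PS2APP;Trem2wt mouse and 2 were not. That mouse was replicate 6, at 0.464, and the other PS2APP;Trem2wt mice were at 0.512 or more, above the highest PS2APP;Trem2ko mouse at 0.490.

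To see whether the members vary together where genotype does not enter, they were compared over the mice of each genotype. In PS2APP;Trem2ko mice, log2(nRPKM + 0.1) of the 2 genes correlated with Pearson's r = 0.951 (two-sided exact permutation p = 0.0111, adjusted over the 2 genotypes p = 0.0157, n = 6) and Spearman's rho = 0.886 (exact permutation p = 0.0333, adjusted p = 0.0667). In PS2APP;Trem2wt mice r was 0.881 (exact permutation p = 0.0157, adjusted p = 0.0157, n = 7) and rho 0.643 (exact permutation p = 0.139, adjusted p = 0.139). Without the 2 mice farthest from the median of Tmem176a, r was 0.780 in the 4 remaining PS2APP;Trem2ko mice and 0.325 in the 5 remaining PS2APP;Trem2wt mice. In PS2APP;Trem2wt mice the relation did not hold without those 2 mice, replicates 3 and 7, whose removal also narrows the range of Tmem176a. Both genes of a mouse come from 1 library, and how reads on the few shared exon bases were counted is not given.

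**Figure D3:**
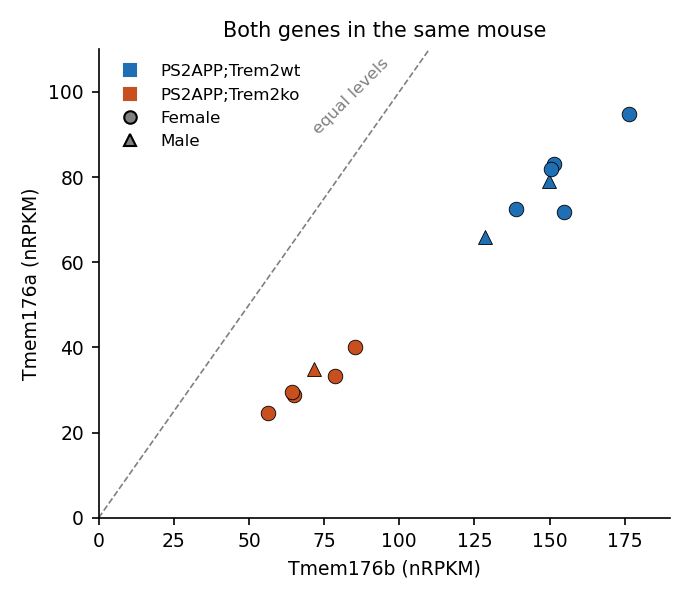
Tmem176a (y axis, nRPKM) against Tmem176b (x axis, nRPKM) in the same mouse, with colour for genotype and shape for sex. All 13 mice lie below the dashed line of equal levels, at a ratio of 0.422 to 0.548, and the 2 genotypes form separate groups, so no r over both is given.

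The pair was then set among its neighbours, to ask whether lower levels extended along the chromosome. Of 77 other genes annotated within 1 Mb, 34 passed the filter. The median of their log2 fold changes was 0.080, 1 gene was called lower and 0 were called higher (edgeR), with 5 at an unadjusted p under 0.05. The called gene was Gpnmb, which encodes a membrane glycoprotein of lysosomes and phagocytes and begins 189.5 kb beyond Tmem176a. Gpnmb fell from 64.1 ± 28.2 nRPKM (SD, n = 7) to 6.26 ± 4.39 (SD, n = 6), a log2 change of -3.36 (SE 0.47) with an edgeR adjusted p = 0.000914, and its call held without any single mouse. Its variation within genotype did not follow the pair, with r = -0.045 against Tmem176a and 0.011 against Tmem176b over 13 mice. This was not so for every called gene known from plaque-associated microglia. Over the 10 such genes Gpnmb had the lowest r with each member. Clec7a had the highest, at 0.674 with Tmem176a and 0.610 with Tmem176b.

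Within 100 kb, 4 of 15 other annotated genes passed the filter, all of them from the GIMAP cluster of immune GTPases. None was called, and none had an unadjusted p under 0.05 (edgeR). Gimap1, at 8.91 and 9.39 nRPKM in PS2APP;Trem2wt and PS2APP;Trem2ko cells, had a log2 difference of 0.075 (SE 0.088), and its antisense transcript Gimap1os had a log2 fold change of -0.19 (SE 0.25). Reads of Gimap1 and Gimap1os cannot be told apart without strand. Gimap5 (log2 fold change -0.074, SE 0.25) and Gimap3 (0.76, SE 0.83) were both under 1 nRPKM. Over the whole GIMAP family 6 of 8 genes passed the filter and 0 were called by edgeR, voom+limma or DESeq2, with 0 at an unadjusted p under 0.05 and a median log2 fold change of 0.16. Gimap6, at a mean of 9.25 nRPKM, was the highest (log2 fold change 0.085, SE 0.093).

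**Figure D4:**
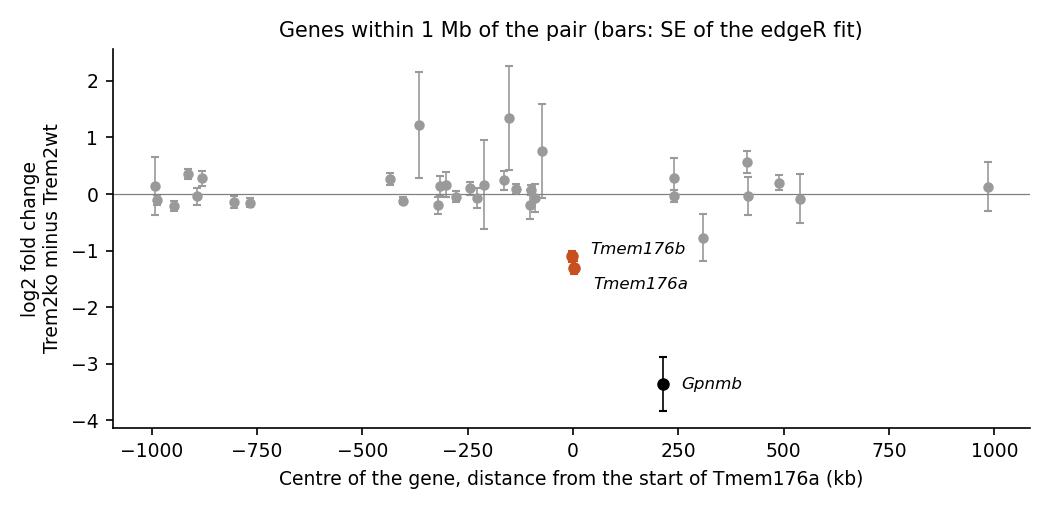
Log2 fold change between PS2APP;Trem2ko and PS2APP;Trem2wt (y axis) of the genes tested within 1 Mb of the pair, against the distance of each gene's centre from the annotated start of Tmem176a (x axis, kb). Bars are the SE of the edgeR fit, orange marks the pair and black the 1 other called gene, Gpnmb, at -3.36. The 4 tested genes within 100 kb lie between -0.19 and 0.76.

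The relatives of the pair were examined next, and at 1.53% of all genes called lower a list of this size would hold few or no calls in any case. Of 18 genes of the MS4A family, 8 passed the filter and 0 were called by edgeR, voom+limma or DESeq2, with 0 at an unadjusted p under 0.05. Their median log2 fold change was 0.25, between -0.28 and 1.39, and 2 of the 8 were negative. Ms4a6d, the highest in these cells, was at 60.6 nRPKM in PS2APP;Trem2wt and 66.0 in PS2APP;Trem2ko cells, a log2 fold change of 0.12 (SE 0.088). Ms4a6b was at 25.0 and 26.4 nRPKM (log2 fold change 0.076, SE 0.082). The summed MS4A level was between 81.2 and 126 nRPKM in PS2APP;Trem2wt and between 104 and 128 in PS2APP;Trem2ko mice, and Ms4a13 and Ms4a18 were listed at 0 throughout.

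Genes of the processes in which the TMEM176 proteins are known were then examined, with the same limit on short lists. Of 14 inflammasome genes, all 14 passed the filter and 0 were called by edgeR, voom+limma or DESeq2. Their median log2 fold change was 0.16, and 4 of the 14 were negative. The 2 at an unadjusted p under 0.05 (edgeR) were both higher in PS2APP;Trem2ko cells, Gsdmd (log2 fold change 0.33, SE 0.12) and Pycard (0.19, SE 0.072). Txnip, a regulator of redox balance that binds NLRP3, had the highest level of the list, at 78.6 and 83.5 nRPKM (log2 fold change 0.084, SE 0.10). P2rx7, the ATP-gated channel that triggers the complex, was at 45.6 and 44.5 nRPKM (log2 fold change -0.036, SE 0.095). Of 12 genes of MHC class II presentation, all 12 passed the filter and 0 were called by edgeR, voom+limma or DESeq2, with 0 at an unadjusted p under 0.05 and a median log2 fold change of -0.10. Ctss, the protease that trims the invariant chain, was at 5545 and 5882 nRPKM (log2 fold change 0.084, SE 0.10). Cd74, the invariant chain itself, was at 690 and 715 nRPKM (log2 fold change 0.059, SE 0.75), and its wide error leaves large changes in either direction undetectable.

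In contrast, 10 of 15 genes known from plaque-associated microglia were called lower and 0 higher, beside 1.53% and 0.503% of all genes tested. The median log2 fold change of the list was -1.07. Several of these genes were singled out on these same mice, so the list is not independent evidence of its direction. Lpl, the lipoprotein lipase, fell by 2.55 (SE 0.20, adjusted p = 3.05e-06, edgeR) on the log2 scale, and Itgax, the integrin CD11c, changed by -2.24 (SE 0.21, adjusted p = 2.42e-05, edgeR). Spp1, which encodes osteopontin, fell by 4.78 (SE 0.49, adjusted p = 6.74e-05, edgeR), and Cst7, a cystatin of the endolysosome, changed by -2.20 (SE 0.23, adjusted p = 8.18e-05, edgeR). The 2 most abundant members of the list did not pass the test: Ctsd had a log2 fold change of -0.20 (SE 0.097) and Apoe one of -0.28 (SE 0.17). The changes of the pair, -1.30 and -1.10, were thus near the median of this list and smaller than those of its most changed genes. Unlike Spp1, which was nearly lost (313 against 11.4 nRPKM), the pair stayed among the more abundant genes of the cell. This was not particular to the pair. The called genes Tyrobp, Cst7, Clec7a and Axl were at 1312, 146, 65.1 and 34.6 nRPKM in PS2APP;Trem2ko cells. The called genes Csf1, Lpl, Gpnmb, Itgax and Igf1 were there at 23.0 nRPKM or less.

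**Figure D5:**
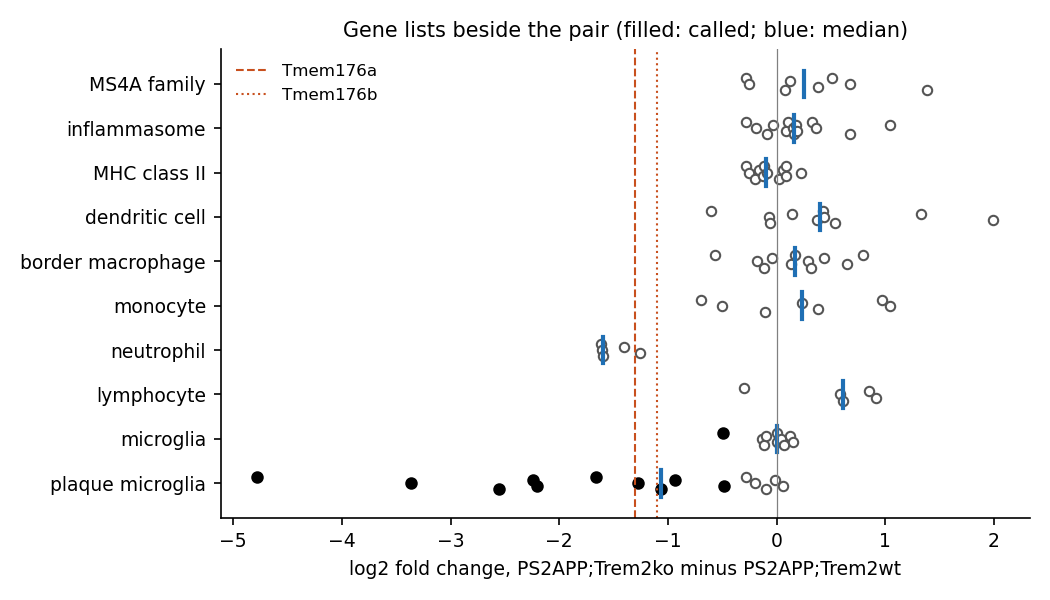
Log2 fold change between PS2APP;Trem2ko and PS2APP;Trem2wt (x axis) of the tested genes of 10 lists (1 row each), with 1 point per gene, filled where the adjusted p was 0.05 or less, and a blue line at the list median. Orange lines mark Tmem176a (-1.30) and Tmem176b (-1.10). Of these lists, plaque microglia (median -1.07) and neutrophil markers (median -1.60, none called) have medians near or below the pair.

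Since the TMEM176 genes are used by other immune cells, markers of those cells were measured in the same libraries. None of the markers of dendritic cells (10 of 10 tested), border-associated macrophages (11 of 11), monocytes (7 of 7), neutrophils (5 of 9) or lymphocytes (5 of 12) was called by edgeR, voom+limma or DESeq2, and 1, 0, 0, 2 and 1 of them had an unadjusted p under 0.05. The median log2 fold changes of the first 3 lists and of lymphocytes were positive, at 0.40, 0.17, 0.23 and 0.61. The 1 dendritic cell gene at an unadjusted p under 0.05, Zbtb46, was lower in PS2APP;Trem2ko cells (0.919 and 0.607 nRPKM, log2 fold change -0.61, SE 0.21, edgeR). It was 1 of 3 negative genes among the 10 tested. The 1 such lymphocyte gene, Thy1, was higher (log2 fold change 0.92, SE 0.32, edgeR). The summed dendritic cell markers, led by Batf3 and Wdfy4, were between 20.0 and 31.8 nRPKM in PS2APP;Trem2wt and between 23.4 and 49.9 in PS2APP;Trem2ko mice. The summed border macrophage markers, led by Stab1 and F13a1, were between 52.7 and 76.5 and between 59.7 and 92.2 nRPKM. Monocyte markers, led by Chil3 and Ccr2, summed to between 2.84 and 23.2 and between 3.39 and 20.5 nRPKM, and lymphocyte markers, led by Il7r and Thy1, to between 5.19 and 10.2 and between 5.33 and 13.2 nRPKM, with Il23r listed at 0 in all mice. In all 4 lists the sums of the genotypes overlapped. The mean sum was higher in PS2APP;Trem2ko mice for 3 of them and slightly lower for monocyte markers (8.71 against 9.52 nRPKM). For dendritic cell markers the higher mean rested on PS2APP;Trem2ko replicate 3, at 49.9 nRPKM. The next PS2APP;Trem2ko mouse was at 28.1 nRPKM.

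Neutrophil markers did move in the direction of the pair. All 5 of the tested genes, Ngp, S100a9, S100a8, Camp and Ltf, which encode granule and calcium-binding proteins of these cells, had negative log2 fold changes between -1.61 and -1.25, with a median of -1.60 and none called. The summed level of all 9 listed markers was between 15.0 and 265 nRPKM in PS2APP;Trem2wt and between 0.149 and 46.3 in PS2APP;Trem2ko mice, although Ly6g+ cells had been gated out. Over the 13 mice their deviations from the genotype mean correlated with those of the pair at r between 0.493 (Camp) and 0.608 (Ltf). In the 3 PS2APP;Trem2wt mice whose sum (15.0 to 24.8 nRPKM) lay within the PS2APP;Trem2ko range, Tmem176a was at 66.0 to 81.9 and Tmem176b at 129 to 150.4 nRPKM, against at most 40.0 and 85.2 in PS2APP;Trem2ko mice. With those 3 mice in place of all 7, an alternative added after the data were seen, the log2 fold changes were -1.21 (SE 0.13) for Tmem176a and -0.997 (SE 0.12) for Tmem176b (edgeR).

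Markers of cells that dissociation can carry along were at low or similar levels in both genotypes. Summed astrocyte markers were between 63.8 and 83.8 nRPKM in PS2APP;Trem2wt and between 69.6 and 89.5 in PS2APP;Trem2ko mice, and oligodendrocyte markers between 55.9 and 73.8 and between 51.2 and 66.3 nRPKM. Neuronal markers stayed at or below 12.4, endothelial markers at or below 23.8 and choroid plexus markers at or below 0.826 nRPKM in every mouse. In these 5 lists edgeR called 0 genes, and 1 astrocyte gene, Slc1a3, had an unadjusted p under 0.05. It was higher in PS2APP;Trem2ko cells (46.9 and 57.8 nRPKM, log2 fold change 0.30, SE 0.075, edgeR adjusted p = 0.0533). It was the 1 gene called by voom+limma (adjusted p = 0.0487) and by DESeq2 (adjusted p = 0.0023). Of the 7 astrocyte genes, 4 had negative log2 fold changes.

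Finally, the genes whose variation between mice of 1 genotype was most like that of the pair were listed as a description. The measure was the mean of Pearson's r with Tmem176a and with Tmem176b over 13 mice, on deviations of log2 CPM, that is counts scaled to the depth of the library, from the genotype mean. On this measure the members correlated with each other at r = 0.926, above every other gene. The highest of the other 17084 genes were Zfp383 (mean r 0.83), Stx7 (0.82), Baiap2l2 (0.80), Samsn1 (0.80), Cd180 (0.79), Abi3bp (0.79), 1190002N15Rik (0.78), Gm38190 (0.78), Ube2g1 (0.77) and Fzd9 (0.77). The median over all genes was -0.004 and the 95th percentile 0.430. At the other end were Dhdds (-0.87), Gtf2ird2 (-0.86), Tgm1 (-0.84), Bbs9 (-0.83) and Fras1 (-0.80), so values as far from 0 occurred in both directions among the genes tested over 13 mice.

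Of the 10 most similar genes, 2 were also called lower in PS2APP;Trem2ko cells, beside 1.53% of all genes tested. Baiap2l2, which encodes a protein that binds curved membranes, was at 5.48 and 1.39 nRPKM, a log2 change of -1.98 (SE 0.17) with an edgeR adjusted p = 1.01e-05. Abi3bp, an extracellular matrix protein, was at 0.221 and 0.0408 nRPKM, a log2 change of -2.44 (SE 0.37) with an edgeR adjusted p = 0.00212. Stx7, a syntaxin of late endosomes, was at 73.8 and 69.7 nRPKM and did not pass the test (log2 fold change -0.085, SE 0.067). The list was not stable: without PS2APP;Trem2wt replicate 3 or without PS2APP;Trem2ko replicate 4, the mice with the highest level of both members in their genotype, 1 of the 10 genes remained.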

How the data were processed

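The members and gene lists were chosen with earlier results of these data known. Per the study's methods, RNA of sorted cells was made into SMART-seq v4 libraries and sequenced as single-end reads, which the authors aligned to GRCm38 with GSNAP. The authors deposited raw counts of reads per gene and nRPKM, that is RPKM scaled with size factors as in DESeq, for each mouse. The version of GSNAP, the annotation used for counting and whether it used strand are not given in the sources used here. Gene names and coordinates were taken from GENCODE M21 for 52489 of 52636 genes, and start sites and sequences from RefSeq (GRCm38.p6).

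Counts were tested with edgeR 4.0.16 (glmQLFit and glmQLFTest, TMM scaling, filterByExpr by genotype, Benjamini-Hochberg adjustment over the genes tested, threshold 0.05) in R 4.3.3, first on simulated counts. The SE is the log2 fold change divided by the square root of F. As alternatives, genotypes were also compared with DESeq2 1.42.0, with limma 3.58.1 (voom, or log2 nRPKM with a pseudocount of 0.1 or 1), with RLE scaling, without a filter or with one of 10 counts in 6 mice, with a sex term, in females alone, and without each mouse in turn. There were 2 more added after the data were seen (mice within the neutrophil marker range, GENCODE exon lengths). Log2 CPM used a prior count of 2. Permutation tests and figures were made in Python 3.11.15 with scipy 1.17.1 and matplotlib 3.10.9. Depth was between 26120961 and 120569609 counts per mouse.

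The genes named are the pair, Trem2, tested neighbours within 100 kb, called genes within 1 Mb, in each list up to 4 called genes with the smallest p and the 2 with the highest mean nRPKM, and the 10 genes most and 5 least like the pair. Besides these, other list members and genes at least as abundant as Tmem176a were named after their values were seen. The lists are hand-written: MS4A, GIMAP, inflammasome, MHC class II, plaque microglia, and markers of microglia, dendritic cells, border macrophages, monocytes, neutrophils, lymphocytes, astrocytes, neurons, oligodendrocytes, endothelium and choroid plexus. Protein sequences were not used here, and 1 gene that the rule names is not reported here.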

Additional observations from a re-analysis of the deposited data

Results flagged for a closer look

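The ratio of Tmem176a to Tmem176b nRPKM in PS2APP;Trem2wt replicate 6 was 0.464, apart from the other 6 PS2APP;Trem2wt mice, of which the nearest was at 0.512. The gap was 0.574 of the range of the genotype. This mouse had the lowest Tmem176a level of the PS2APP;Trem2wt females (71.9 nRPKM) and a Tmem176b level of 155 nRPKM, the second highest of that genotype. The 2 levels and the ratio were examined in both genotypes, 6 groups in all, and 1 was set apart in this way, while chance sets apart about 1 in 20 groups.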

How the results depend on the processing

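The log2 fold changes of the pair kept their direction under all 23 alternatives (Tmem176a between -1.38 and -1.21, Tmem176b between -1.16 and -0.997). For these fold changes this is a description and no independent support. The pair was chosen on this difference, and every alternative used these same mice. The log2 ratio kept its direction under all 16 alternatives. Counts over all genes moved more. DESeq2 called 530 genes lower and 332 higher in PS2APP;Trem2ko cells, against 262 and 86, females only called 173 lower, no filter 53 higher, and the mice within the neutrophil marker range 109 lower and 24 higher. Leaving out each mouse gave between 42 and 107 genes higher. The sex difference of Tmem176a lay between -0.15 and 0.066 without each mouse, and was above 0 without PS2APP;Trem2wt replicate 3 or 7 or PS2APP;Trem2ko replicate 4. The correlation of the members in PS2APP;Trem2wt mice was 0.799 in females only (exact permutation p = 0.125) and between 0.740 and 0.988 without each mouse, no longer past the threshold without replicates 3, 4 or 7. In PS2APP;Trem2ko mice it was between 0.906 and 0.983, no longer past it without replicates 4 or 6. With fewer mice the smallest p is larger. The cause of the other changes was not tested. No paired analysis was possible because the labels do not say which mice were handled as a pair, although the study mostly processed a mouse of each genotype side by side. The replicate numbers used here follow accession order and only name mice. With 13 mice, 3 of them male, small differences by sex were not detectable, and nRPKM keeps no depth of its own.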
